A study of Homo sapiens with 9 samples.

Results

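The genes described here build the N-linked glycan of secreted and membrane proteins, attach it to protein and trim it afterwards in the endoplasmic reticulum (ER). The list held 38 genes, named by their place in the pathway, and no value on these arrays entered the rule, although the list was drawn up with earlier results of these data known. Of these, 32 had a probe set of their own, meaning one that names no other gene, among the 14207 genes tested. The other 6 were ALG1, ALG9, ALG10, ALG11 and RPN2, whose probe sets also name other genes, and PMM2, which was not analysed here.

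The RNA was from ARPE-19, a human cell line of the retinal pigment epithelium, on 9 Affymetrix exon arrays. Vehicle, condensate of cigarette smoke at 100 µg/ml (the lower dose) and the same at 250 µg/ml (the higher dose) had 3 arrays each. The medium of every group lacked serum and held albumin, and the stock of condensate was dissolved in DMSO. The labels do not call the arrays of a group separate cultures, so a p-value here covers array spread that may be technical.

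N-glycans are made once, as a common precursor, and moved whole onto protein. The sugars are added one at a time to dolichol phosphate, a long lipid in the ER membrane, first on its cytosolic face and then on its luminal face, using activated mannose and glucose. Oligosaccharyltransferase then transfers the finished chain to asparagine in the sequence context it recognises as the protein enters the ER, and glucosidases, a mannosidase and a glucosyltransferase trim and re-glucosylate it while the protein folds. In a secretory epithelium such as the pigment epithelium, most surface receptors and matrix proteins pass through these steps.

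The labelled cell type was checked against markers of the pigment epithelium. On all 9 arrays OTX2, MITF, TYRP1, KRT8 and KRT18 lay above the array's median log2 value, which was between 4.42 and 4.59. RPE65, RLBP1, BEST1, SERPINF1 and TTR lay below it on all 9, and PMEL lay above it on 6 of 9. The 11 measured markers averaged 5.65 to 6.05 log2 units on the vehicle arrays, 5.28 to 5.56 with the lower dose and 5.25 to 5.57 with the higher. The mean was lower than in vehicle for 11 of 11 of them at the lower dose and for 9 of 11 at the higher. It was lower for 8416 and 8135 of all 14207 genes, and higher for 40.8% and 42.7%. Of the markers 0 passed the test, where 0.0633% and 0.549% of all genes did. Of 8 markers of leukocytes, endothelium, photoreceptors and glia, 7 lay below the median on every array and CD68, also a general lysosomal gene, lay above it. Their mean ran from 3.78 to 3.99, 3.68 to 3.91 and 3.81 to 3.92 in the same order. The part of these marker differences in the results below was not tested.

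The promoters of the members are shown first, and a link between the motifs and the values below was not tested. The RefSeq table (build GRCh38.p14, another build than the hg18 named for the arrays) held starts for 33 of the 38 members. In the 250 bases before each start 5 short motifs were searched on both strands. They were the ER stress response element (ERSE; CCAAT and CCACG with 9 bases between), ERSE-II (ATTGG and CCACG with a single base between), the unfolded protein response element TGACGTGG, the core of the antioxidant response element TGACNNNGC, and the ATF4 element TGATGNAA. ERSE-II shares its CCACG with ERSE, and the other motifs were counted independently of overlap. Below are the region before DPAGT1, the one member past the test, that before ALG6, the member with the largest change, and that before ALG12, the one member with an ERSE. Capitals mark the ERSE, and the stretches before DPAGT1 and ALG6 held none of the 5 motifs.

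DPAGT1, chr11:119101854-119102103, minus strand: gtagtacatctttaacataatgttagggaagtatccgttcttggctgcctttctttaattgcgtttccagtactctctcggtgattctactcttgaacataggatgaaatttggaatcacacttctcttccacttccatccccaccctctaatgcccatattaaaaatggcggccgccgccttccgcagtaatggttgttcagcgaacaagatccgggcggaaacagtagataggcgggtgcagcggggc
ALG6, chr1:63367377-63367626, plus strand: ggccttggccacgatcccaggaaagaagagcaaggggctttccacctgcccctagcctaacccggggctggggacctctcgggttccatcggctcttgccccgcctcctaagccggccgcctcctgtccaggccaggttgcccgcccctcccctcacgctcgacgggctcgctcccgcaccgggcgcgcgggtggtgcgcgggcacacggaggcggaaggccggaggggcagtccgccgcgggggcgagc
ALG12, chr22:49918439-49918633, minus strand: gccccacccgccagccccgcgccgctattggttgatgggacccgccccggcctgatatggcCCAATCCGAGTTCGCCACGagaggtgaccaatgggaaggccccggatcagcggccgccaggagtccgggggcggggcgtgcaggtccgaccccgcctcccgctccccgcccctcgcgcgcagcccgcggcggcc

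The ERSE of ALG12 ran from base 134 to base 116 before the start, and the printed stretch of 195 bases ends where the divergent neighbour CRELD2 begins. Of 34943 starts in the table, 0.0744% held an ERSE, 0.0515% an ERSE-II, 0.615% the unfolded protein response element, 10.9% the antioxidant core and 3.15% the ATF4 element. Among the members, ERSE-II, the unfolded protein response element and the ATF4 element were found before none. Some members have several starts, 46 in all. The antioxidant core lay before 8 of the 46 (17.4%), 1 each of ALG1, ALG8, ALG12, ALG13, DOLK, GANAB, PMM1 and UGGT2, and before ALG12 it fell beyond the printed bases. A match of letters is not a binding site, and a missing match says only that these letters are not in this window.

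At 250 µg/ml against vehicle, DPAGT1 was the one member that passed, and it rose. The enzyme it encodes starts every precursor by placing GlcNAc phosphate on dolichol phosphate, and it is the target of tunicamycin. Its log2 values were 7.02, 7.12 and 6.65 on vehicle arrays 1 to 3, 7.71, 7.67 and 7.52 at 100 µg/ml, and 7.74, 7.83 and 7.70 at 250 µg/ml. All 6 treated arrays lay above all 3 controls, and the treated arrays were close to each other. At the higher dose the rise was 1.77-fold, which is 0.83 on the log2 scale with an SE of 0.13 and 3 arrays in each group (limma adjusted p = 0.0491 over all genes). At 100 µg/ml the change was 0.70 ± 0.13 (adjusted p = 0.14).

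That call stood at the edge of the threshold. It passed in 5 of 16 other settings, with adjusted p between 0.0273 and 0.196, while the change itself lay between 0.69 and 0.92 log2 units in all 16. Leaving out vehicle array 1 or 2 gave adjusted p of 0.0569 and 0.0507, and leaving out 250 µg/ml array 1, 2 or 3 gave 0.161, 0.196 and 0.0688. Over all genes 0.549% passed at the higher dose, 0.387% higher and 0.162% lower, against 1 of 32 members. At the lower dose 0.0633% passed, 0.0563% higher and 0.00704% lower, against 0 of 32.

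**Figure D1:**
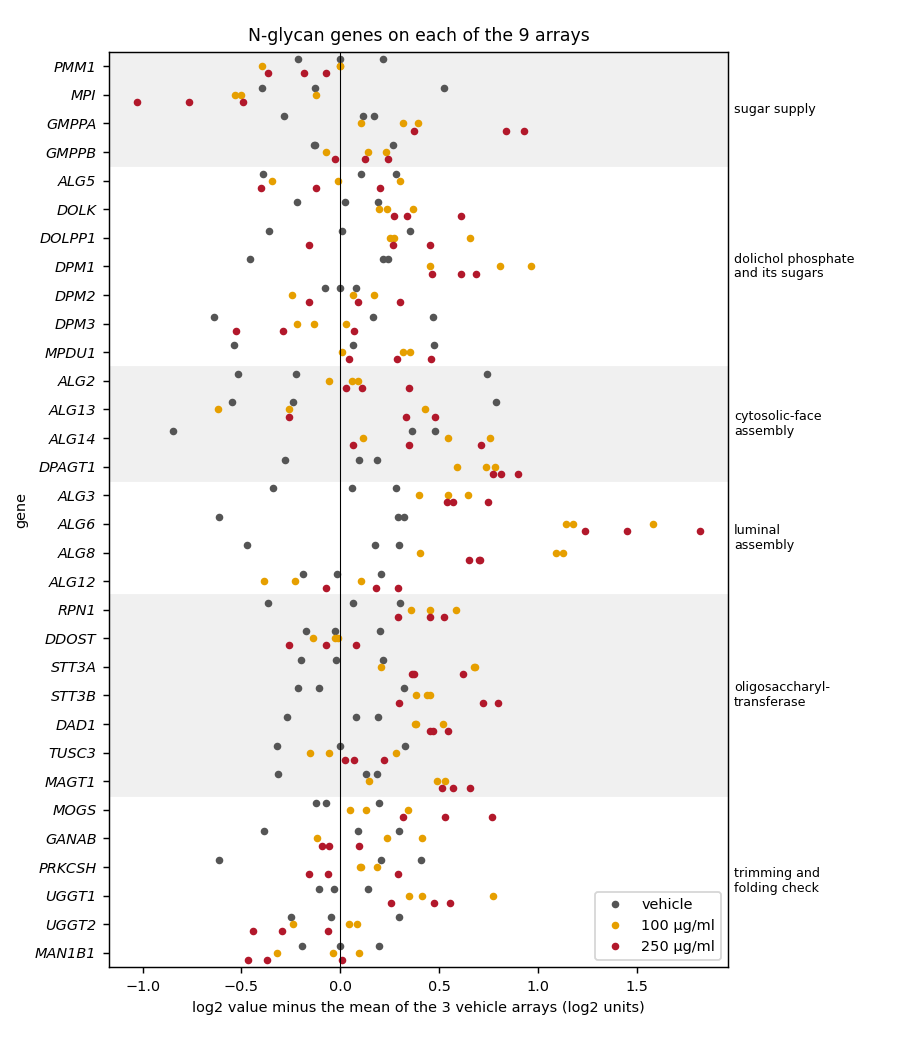
Each point is 1 array, plotted as the log2 value of a gene minus its mean over the 3 vehicle arrays (horizontal axis, log2 units). The 32 measured genes are grouped by step, and colours mark the dose. Treated arrays of DPAGT1 and ALG6 lie to the right of every vehicle array, and those of TUSC3 lie among them.

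Many further members lay higher in treated cells without passing over all genes. The mean was higher than in vehicle for 22 members at the lower dose and 24 at the higher, where it was so for 40.8% and 42.7% of all genes. At an unadjusted p under 0.05, 11 of 32 were higher and 0 lower at the lower dose, beside 14.6% of all genes (7% higher and 7.65% lower). At the higher dose 14 were higher and 1 lower, beside 16.6% (8.74% and 7.9%). The 3 treated arrays lay above all 3 controls for 10 members at the lower dose, where 6.41% of all genes did, and for 12 at the higher, where 8.61% did. They lay below for 0 and 1 members, and for 11.9% and 14.3% of all genes. The median change of the 32 was 0.20 log2 units with the lower dose and 0.23 with the higher, beside -0.05 and -0.04 for all genes. Both doses share the same controls, so their counts are not separate evidence. The members also had higher levels than most genes, from percentile 51.17 (GMPPB) to 99.94 (DAD1) of the genes tested. The shares over all genes include dimmer genes, and a comparison with genes of like level was not made.

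Vehicle array 1 was low in this pathway, but not in this pathway alone. It was the lowest control for 27 of 32 members, where it was the lowest for 41.0% of all genes, and its mean over the members lay 0.45 log2 units below their average over the arrays. Vehicle arrays 2 and 3 lay at 0.01 and -0.08, and the treated arrays between 0.01 and 0.17, so the lowest treated array stood only just above vehicle array 2. In neighbouring lists described further below, vehicle array 1 stood at -0.38 for ER lectins and degradation and -0.27 for Golgi maturation. It stood at -0.44 for UDP-GlcNAc supply and -0.80 for further oligosaccharyltransferase subunits. For dolichol synthesis it stood at -0.11, above vehicle arrays 2 and 3, and for all genes at -0.07. Its upper quartile, 6.45 log2 units, was the lowest of the 9 arrays, the next being 6.57. Without vehicle array 1 the median change was 0.12 for the lower dose and 0.086 for the higher, and the members higher at an unadjusted p numbered 8 and 9. Without vehicle array 2 the medians were 0.34 and 0.39, and without vehicle array 3 the median at 250 µg/ml was 0.40. Without 250 µg/ml array 1 the median at that dose was 0.37, and the count at an unadjusted p was 7 without 100 µg/ml array 2 and 9 without 250 µg/ml array 2.

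**Figure D2:**
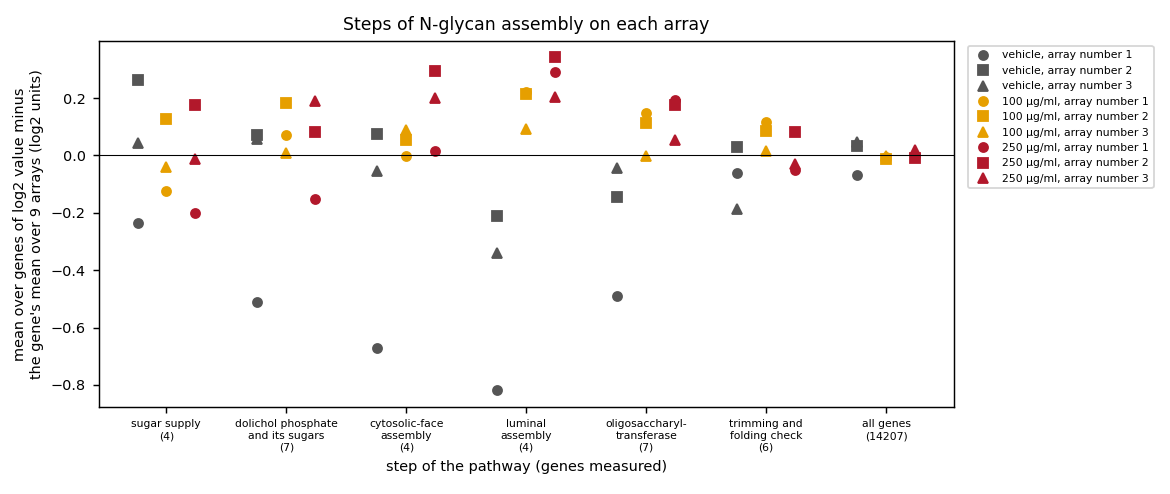
For each step of the pathway, and for all 14207 genes, each point gives 1 array's mean over the genes of log2 value minus the gene's mean over the 9 arrays (vertical axis, log2 units). Colours mark the dose and symbols the array number. Vehicle array 1 (grey circle) is the lowest array in 5 of the 6 steps. For luminal assembly, and narrowly for oligosaccharyltransferase, all 3 vehicle arrays lie below all treated arrays.

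The genes for the supply of activated mannose had changes of both signs, none past the threshold. The supply itself was not measured. MPI, phosphomannose isomerase, makes mannose 6-phosphate from fructose 6-phosphate. Its values were 7.47, 8.39 and 7.74 on the vehicle arrays, 7.33, 7.74 and 7.36 at 100 µg/ml and 6.84, 7.37 and 7.10 at 250 µg/ml. The arrays at 250 µg/ml lay below every control, and those at 100 µg/ml overlapped them. The change was -0.76 ± 0.25 at 250 µg/ml (limma adjusted p = 0.189) and -0.39 ± 0.25 at 100 µg/ml (adjusted p = 0.493). Without vehicle array 2, the highest control, the change at 250 µg/ml was -0.50.

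GMPPA, the regulatory subunit of GDP-mannose pyrophosphorylase, read 6.13, 6.59 and 6.53 on the vehicle arrays, 6.52, 6.81 and 6.73 at 100 µg/ml, and 6.79, 7.34 and 7.25 at 250 µg/ml. Only the higher dose cleared the controls, with a change of 0.71 ± 0.18 (limma adjusted p = 0.115). The catalytic subunit GMPPB had a change of 0.11 with a 95% interval of -0.22 to 0.45, and the phosphomannomutase gene PMM1 one of -0.21 (-0.57 to 0.16). The median of the 4 measured supply genes was -0.02 with the lower dose and -0.05 with the higher, near enough to 0 that it ran from -0.10 to 0.05 and from -0.13 to 0.02 with single arrays left out.

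Among genes of dolichol phosphate and its sugars, DPM1 had the largest change at both doses. It encodes the catalytic subunit of dolichol phosphate mannose synthase, the mannose donor for the luminal steps. Its values were 7.54, 8.21 and 8.23 on the vehicle arrays, 8.80, 8.96 and 8.44 at 100 µg/ml and 8.68, 8.61 and 8.46 at 250 µg/ml. No treated array reached down to the controls. The changes were 0.74 ± 0.21 and 0.59 ± 0.21 (limma adjusted p = 0.213 and 0.224), and the latter was 0.36 without vehicle array 1.

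For the partners that hold DPM1 in the membrane, the intervals crossed 0 at both doses. DPM2 had changes of 0.00 and 0.08 log2 units, with 95% intervals of -0.35 to 0.34 and -0.27 to 0.42, and DPM3 changes of -0.11 and -0.25 (-0.73 to 0.52 and -0.87 to 0.37). The dolichol kinase gene DOLK had its 3 arrays above the controls at both doses, with changes of 0.27 ± 0.14 and 0.41 ± 0.14 (limma adjusted p = 0.413 and 0.207). DOLPP1, which recycles dolichyl pyrophosphate, the glucose donor synthase ALG5 and MPDU1, needed for use of both lipid-linked sugars, had changes between -0.11 and 0.39 that overlapped the controls.

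On the cytosolic face, 3 genes were measured beside DPAGT1. ALG13 and ALG14 together add the next GlcNAc, and ALG2 adds mannose. ALG13 read 5.07, 5.38 and 6.40 on the vehicle arrays, 5.0, 5.36 and 6.05 at 100 µg/ml and 5.36, 5.95 and 6.10 at 250 µg/ml. Its array numbered 3 was the highest in each group, and the groups overlapped. The changes of these 3 genes lay between -0.15 and 0.47 at both doses, with 95% intervals that all crossed 0. The median of the 4 cytosolic-face genes was 0.25 and 0.28, and -0.09 and -0.07 without vehicle array 1.

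The luminal steps held the largest change of the pathway. ALG6, which adds the first glucose, read 4.17, 5.10 and 5.07 on the vehicle arrays, 5.96, 6.36 and 5.92 at 100 µg/ml and 6.23, 6.60 and 6.02 at 250 µg/ml. All 6 treated arrays lay above every control. The change was 1.30 ± 0.27 at 100 µg/ml (2.46-fold, limma adjusted p = 0.16) and 1.50 ± 0.27 at 250 µg/ml (2.83-fold, adjusted p = 0.053), so ALG6 missed the threshold. Over 16 other settings the change at the higher dose ran from 1.20 to 1.66 with adjusted p from 0.0309 to 0.203, and 6 of the 16 passed. On vehicle array 1 ALG6 lay below that array's median.

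ALG8, which adds the glucose after that of ALG6, read 6.98, 7.63 and 7.75 on the vehicle arrays, 8.58, 8.55 and 7.86 at 100 µg/ml and 8.16, 8.15 and 8.11 at 250 µg/ml. The treated arrays lay above the controls at both doses, with array 3 at 100 µg/ml only just so. The changes were 0.87 ± 0.24 and 0.69 ± 0.24 (limma adjusted p = 0.213 and 0.224), and the latter was 0.45 without vehicle array 1. ALG3, the mannosyltransferase of the first luminal mannose, had changes of 0.53 ± 0.16 and 0.62 ± 0.16, again with no overlap (adjusted p = 0.228 and 0.123). The median of the 4 luminal genes was 0.70 with the lower dose and 0.65 with the higher. With single arrays left out it ran from 0.497 to 0.816 and from 0.449 to 0.768.

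ALG12, which adds a later mannose on the luminal side, overlapped the controls at both doses. It was also the one member with an ERSE, and a link between the motif and the values was not tested. It read 6.50, 6.73 and 6.33 on the vehicle arrays, 6.29, 6.13 and 6.63 at 100 µg/ml and 6.81, 6.45 and 6.70 at 250 µg/ml. Its changes were -0.17 (95% interval -0.55 to 0.21) and 0.13 (-0.25 to 0.52). In the RefSeq table its start lies 196 bases from that of CRELD2, an ER protein with thioredoxin-like sites, and both genes are read away from this stretch. CRELD2, no member of the list and looked at after the ALG12 values were seen, read 4.92, 5.96 and 5.55 on the vehicle arrays, 6.80, 6.71 and 6.27 at 100 µg/ml and 6.48, 6.71 and 6.77 at 250 µg/ml. All 6 treated arrays of CRELD2 lay above its controls, with changes of 1.12 and 1.18 (limma adjusted p = 0.187 and 0.0808).

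The difference between both genes was also taken on each array. CRELD2 minus ALG12 was -1.59, -0.77 and -0.78 log2 units on the vehicle arrays, 0.51, 0.58 and -0.35 at 100 µg/ml and -0.34, 0.26 and 0.06 at 250 µg/ml. All treated arrays lay above all controls, a shift of 1.29 for the lower dose and 1.04 for the higher. The two-sided exact permutation test gave p = 0.1 for each, also after adjustment over both, which is the smallest that 3 against 3 arrays allow.

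**Figure D3:**
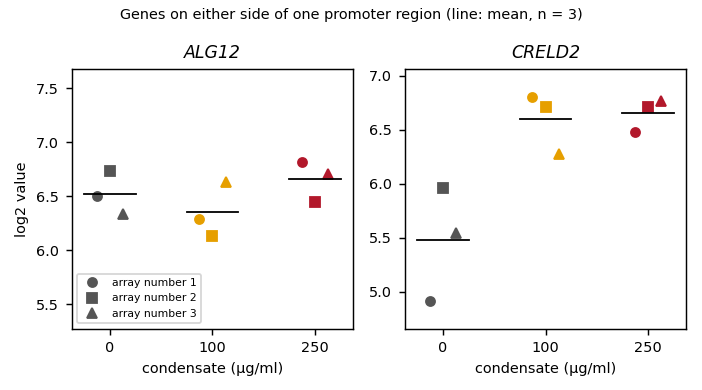
Log2 values (vertical axis, each panel its own level over the same span) of ALG12 and of CRELD2 by condensate dose (horizontal axis, µg/ml). Points are arrays, symbols give the array number and lines the means. ALG12 overlaps between doses, and all 6 treated arrays of CRELD2 lie above its controls.

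Oligosaccharyltransferase has a catalytic subunit in 2 forms, STT3A in the complex that works as the protein enters the ER and STT3B in the complex that fills sites left over. STT3A read 10.07, 10.25 and 10.48 on the vehicle arrays, 10.94, 10.94 and 10.47 at 100 µg/ml and 10.89, 10.64 and 10.63 at 250 µg/ml. Array 3 at 100 µg/ml fell among the controls, and those at the higher dose did not. The changes were 0.52 ± 0.17 and 0.45 ± 0.17 (limma adjusted p = 0.249 and 0.236).

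STT3B read 9.06, 9.16 and 9.59 on the vehicle arrays, 9.71, 9.65 and 9.72 at 100 µg/ml and 10.07, 9.99 and 9.57 at 250 µg/ml. Here array 3 at 250 µg/ml fell just below the highest control. The changes were 0.43 ± 0.18 and 0.61 ± 0.18 (limma adjusted p = 0.322 and 0.151). A difference between the responses of the catalytic forms was not tested.

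The other subunits had changes from -0.08 to 0.58. DAD1, the small subunit named for cell death in its absence, had changes of 0.43 ± 0.13 and 0.49 ± 0.13 with no overlap at either dose (limma adjusted p = 0.224 and 0.125). RPN1, a large subunit, had changes of 0.46 ± 0.17 and 0.42 ± 0.17 (adjusted p = 0.28 and 0.264). DDOST, also present in both complexes, had changes of -0.06 and -0.08, with 95% intervals of -0.36 to 0.24 and -0.38 to 0.21. MAGT1 and TUSC3 are alternative thiol oxidoreductase subunits of the STT3B complex. MAGT1 had changes of 0.39 ± 0.16 and 0.58 ± 0.16 (adjusted p = 0.323 and 0.141), and TUSC3 changes of 0.02 and 0.10 (95% intervals -0.39 to 0.44 and -0.31 to 0.52). Of the 7 measured subunits 5 were higher at an unadjusted p at each dose, beside 7% and 8.74% of all genes. Their median was 0.43 and 0.45, and without vehicle array 1 it was 0.28 and 0.35.

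**Figure D4:**
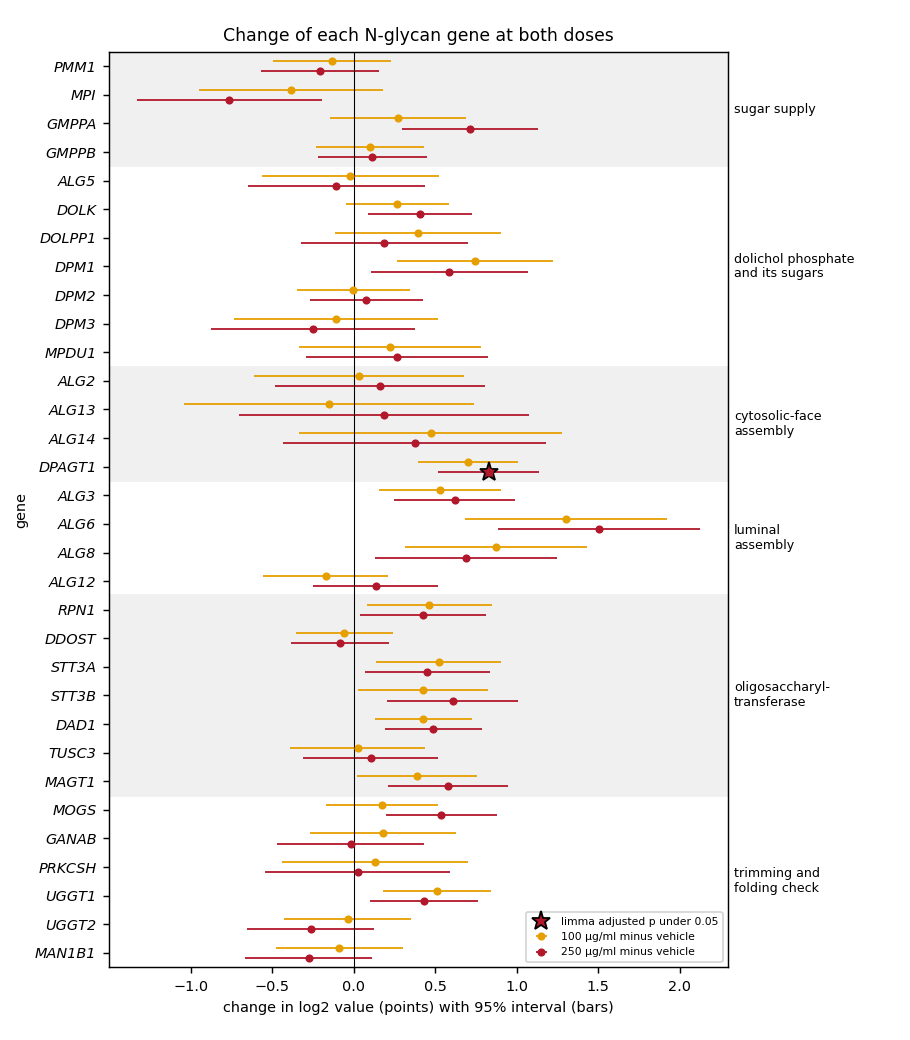
Change in log2 value against vehicle (points) with 95% intervals from limma (bars) for the 32 measured genes, at 100 µg/ml and 250 µg/ml. The star marks DPAGT1 at 250 µg/ml, the one change with an adjusted p under 0.05, and ALG6 has the largest change at both doses.

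Of the 6 trimming and folding-check genes, MOGS and UGGT1 had changes clear of the controls. MOGS, glucosidase I, removes the outermost glucose right after transfer. It read 6.37, 6.69 and 6.42 on the vehicle arrays, 6.62, 6.54 and 6.84 at 100 µg/ml and 7.02, 7.26 and 6.81 at 250 µg/ml. Only the higher dose lay above the controls, with a change of 0.54 ± 0.15 (limma adjusted p = 0.142), beside 0.17 ± 0.15 at 100 µg/ml (0.61). UGGT1, which puts glucose back on misfolded glycoproteins, had changes of 0.51 ± 0.14 and 0.43 ± 0.14 with no overlap (adjusted p = 0.213 and 0.203).

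Its relative UGGT2 read 5.73, 5.93 and 6.28 on the vehicle arrays, 5.74, 6.02 and 6.07 at 100 µg/ml and 5.54, 5.69 and 5.92 at 250 µg/ml. These overlapped, with changes of -0.04 and -0.26 (95% intervals -0.43 to 0.35 and -0.65 to 0.12). MAN1B1, the mannosidase that trims glycans of proteins bound for degradation, read 6.60, 6.79 and 6.99 on the vehicle arrays, 6.75, 6.88 and 6.47 at 100 µg/ml and 6.42, 6.80 and 6.33 at 250 µg/ml. It overlapped as well, with changes of -0.09 and -0.28 (-0.48 to 0.30 and -0.67 to 0.11). Both subunits of glucosidase II lay near 0, GANAB at 0.18 and -0.02 and PRKCSH at 0.13 and 0.02. The median of the 6 was 0.15 with the lower dose and 0.00 with the higher. It was 0.25 and 0.13 without vehicle array 2 and 0.061 and -0.15 without vehicle array 3, and the higher dose also gave 0.13 without vehicle array 1 and -0.05 without its own array 3.

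**Figure D5:**
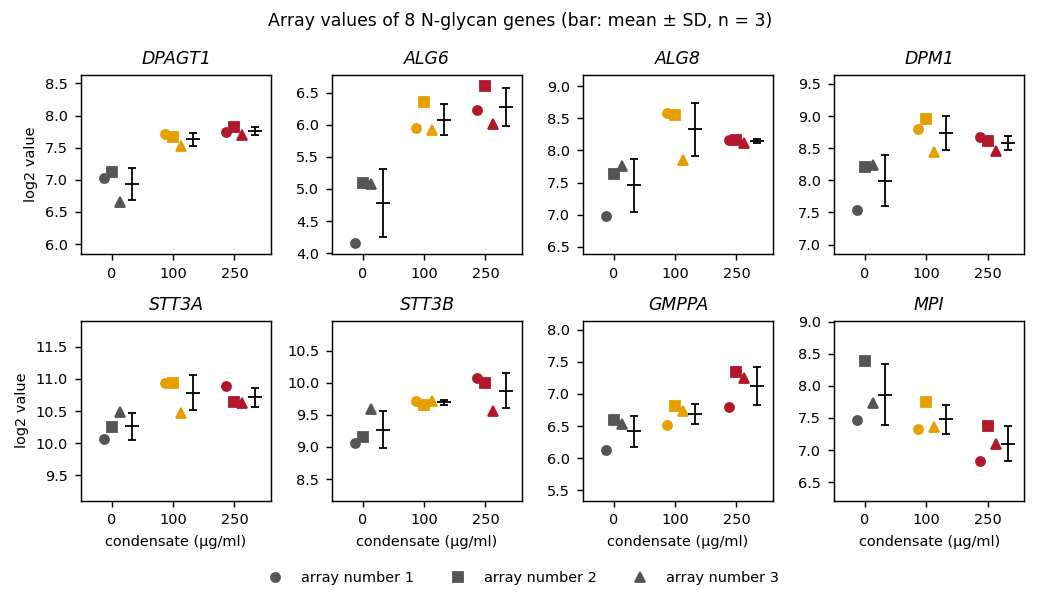
Log2 values (vertical axes, each panel its own level over the same span) of 8 genes by condensate dose (horizontal axis, µg/ml). Coloured symbols are arrays, with the array number as the shape, and black bars give mean ± SD (n = 3). DPAGT1, ALG6, ALG8 and DPM1 have all treated arrays above the controls, and MPI has its 250 µg/ml arrays below them.

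Between both doses no member differed past the threshold. With limma 0 of 32 members and 0 of 14207 genes (0%) passed, and at an unadjusted p under 0.05 2 members were higher and 0 lower at the higher dose, beside 1.84% of all genes (0.985% and 0.859%). The arrays of both doses overlapped for all 32 members, where 3.32% of all genes lay wholly above and 2.86% wholly below. The mean was higher at the higher dose for 16 members and for 54.4% of all genes. The 2 were GMPPA, with a difference of 0.44 (95% interval 0.02 to 0.86), and MOGS, with 0.36 (0.02 to 0.71). Differences over the members ran from -0.38 to 0.44, with a median of -0.01. For DPAGT1 the difference was 0.12 (-0.18 to 0.43) and for ALG6 0.20 (-0.42 to 0.82).

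Arrays of the same number varied together between the doses. With the array number as a replicate block, 0 members and 0 genes passed in limma, but the members at an unadjusted p changed to 1 higher, GMPPA, and 1 lower, MPI, beside 1.85% and 1.44% of all genes. The block fit covered the vehicle arrays too, grouped by number with the treated ones. Under the block the 95% interval was 0.21 to 0.67 for GMPPA, -0.67 to -0.08 for MPI, -0.13 to 0.38 for DPAGT1 and -0.30 to 0.71 for ALG6. Number-matched differences were taken as well. GMPPA was 0.27, 0.53 and 0.52 log2 units higher at 250 µg/ml in pairs 1 to 3, and DPAGT1 0.03, 0.16 and 0.18 higher. ALG6 was higher in 3 of 3 pairs by 0.09 to 0.28, ALG12 by 0.08 to 0.53 and ALG13 by 0.05 to 0.59. MOGS was higher in pairs 1 and 2, by 0.40 and 0.72, and stood at -0.02 in pair 3. MPI was lower in 3 of 3, with -0.49, -0.37 and -0.27, as were UGGT2 and MAN1B1. In all, 10 of 32 members (31.2%) were higher in every pair and 3 (9.4%) lower, beside 17.7% and 13.6% of all genes.

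The genes around the pathway were counted from lists of their own. Among 10 ER lectins and genes of glycan-dependent degradation, MLEC rose at both doses, and no other passed. It encodes malectin, a lectin for glycans that still carry glucose. It read 8.60, 8.63 and 8.73 on the vehicle arrays, 9.50, 9.56 and 9.58 at 100 µg/ml and 9.47, 9.72 and 9.58 at 250 µg/ml. The groups were far apart for their spread, with rises of 0.90 ± 0.10 and 0.94 ± 0.10 (limma adjusted p = 0.0485 and 0.0089). Over all genes 0.0633% passed at the lower dose and 0.549% at the higher. The call at the lower dose lay close to the threshold, and MLEC was not followed in the other settings. At an unadjusted p 5 of the 10 were higher and 1 lower at each dose, beside 7% and 7.65% of all genes at the lower dose and 8.74% and 7.9% at the higher. The list's median was 0.34 and 0.44.

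In the other neighbouring lists 0 genes passed in either direction at either dose, and at an unadjusted p the counts were as follows. Of 14 Golgi maturation genes 3 were higher with the lower dose and 6 with the higher, beside 7% and 8.74% of all genes, with medians of 0.17 and 0.26. Of 3 further oligosaccharyltransferase subunits 0 were higher, with medians of 0.34 and 0.24, and of 3 genes of UDP-GlcNAc supply 0, with medians of 0.33 and 0.37. DHDDS, the one measured gene of dolichol synthesis, had changes of 0.43 and 0.55 (limma adjusted p = 0.398 and 0.255). In such bulk RNA, fewer cells expressing a gene and less RNA of it per cell cannot be told apart.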

How the data were processed

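The deposited values are log2 intensities summarised by transcript. Partek, RMA and build hg18 appear in the submitters' processing notes, with their versions and settings not given in the sources used here. Since RMA normalizes the arrays jointly, a change in RNA per cell is not visible in them. No detection calls were used. Of 17629 probe sets, those naming 1 gene (14378) were kept, with symbols updated through RefSeq and the highest mean taken where a gene had several, which left 14207 genes.

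All 9 arrays were fitted in limma 3.58.1 (R 4.3.3) with 1 mean per group. P-values were adjusted by Benjamini-Hochberg over all genes, with a threshold of 0.05. The fit was tested on simulated data, with 100 genes changed 2-fold and 100 changed 4-fold in each comparison. It called 51% to 56% of the former and 91% to 92% of the latter, with 4 to 11 false calls. Changes of 2-fold or less could thus be missed. Members and gene lists were chosen with earlier results of these data known. Values on every array are given for DPAGT1, STT3A, STT3B, members past the threshold, and the 4 largest rises and 2 largest falls of each comparison. Neighbouring genes past the threshold, and CRELD2 beside ALG12, were added.

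Whether array numbers pair samples was checked by correlating deviations from group means. Same-numbered arrays of both doses correlated at 0.443 to 0.682, so the numbers were taken as pairs on the evidence of the values alone. Against the controls the range was -0.142 to 0.265, so the main fit used no pairing there. The replicate block setting covered all arrays, so it also grouped each vehicle array with the treated arrays of its number. Other settings tried were median centring, quantile normalization, a dim-gene filter, other probe set rules, other variance models, array weights, a replicate block and leaving out arrays.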

Additional observations from a re-analysis of the deposited data

Results flagged for a closer look

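Members without a probe set of their own were not part of the comparisons, and 2 of them showed a signal above the controls on probe sets that name several genes. The probe set naming ALG1 with EEF2KMT and ALG1L1P read 7.25 to 7.94 log2 units on the vehicle arrays and 8.05 to 8.37 on all 6 treated arrays, with a change of 0.76 for 250 µg/ml and 0.64 for 100 µg/ml. The probe set naming ALG10 with ALG10B, which adds the last glucose, read 3.29 to 3.44 on the vehicle arrays and 3.58 to 4.58 on the treated ones, with a change of 0.27 for 250 µg/ml and 0.63 for 100 µg/ml. The latter lies at the bottom of the scale, and its highest value comes from 100 µg/ml array 1. Which of the named genes gave these values was not tested.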

How the results depend on the processing

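At 250 µg/ml against vehicle, the members called numbered 0 after quantile normalization, with probe sets naming several genes kept, with the third group dropped from the fit and when both doses lost their arrays numbered 3. They numbered 2 without dim genes, 2 with array weights and 3 with the replicate block (DPAGT1, ALG6 and GMPPA), and 0 to 2 with single arrays left out. The 1 member called with arrays centred on their medians, or with a trended robust variance, was ALG6 in place of DPAGT1. At 100 µg/ml the count was 1 with array weights (DPAGT1) and 0 otherwise, and 0 between doses in every setting, so the replicate block changed no adjusted call there. With single arrays left out, the members higher at an unadjusted p numbered 7 to 13 and 9 to 14, a count chosen after seeing the data. Over all genes the calls ran from 1 to 73 at 100 µg/ml (9 as reported) and from 1 to 296 at 250 µg/ml (78 as reported). Of 624 values of single genes under other settings, 11 changed sign, all in changes that never passed. With single arrays left out, ALG13 ran from -0.439 to 0.243 at the lower dose and from -0.0887 to 0.578 at the higher. At the lower dose UGGT2 ran from -0.161 to 0.112 and MAN1B1 from -0.185 to 0.0278, with 0.0296 for MAN1B1 under array weights and 0.0278 without the arrays numbered 3. STT3A between doses ran from -0.227 to 0.00943. The cause was not tested. The number of arrays limits the precision.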

Other observations

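Genes that act on the glycan after the steps above also had changes, none past the threshold apart from MLEC. EDEM3, a mannosidase of ER-associated degradation, had changes of 0.72 and 1.18 log2 units (limma adjusted p = 0.219 and 0.052), and ERLEC1, a lectin of the same route, 0.47 and 0.70 (0.219 and 0.0656). EDEM1, a relative of EDEM3, had changes of the other sign, -0.65 and -0.64 (0.248 and 0.193). In the Golgi, MGAT5, which starts a branch of complex glycans, had changes of 0.63 and 1.06 (0.29 and 0.0827), and the core fucosyltransferase gene FUT8 0.82 and 0.75 (0.209 and 0.156). The arrays of both doses lay clear of the controls for all 5 genes, which were picked after their values were seen. Of the 10 ER lectin and degradation genes 5 lay above the controls and 1 below at each dose. Of the 14 Golgi genes 3 lay above at the lower dose and 4 at the higher, and 0 below. Of all genes 6.41% and 8.61% lay above, and 11.9% and 14.3% below.

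None of the other 3 probe sets shared with further genes had all treated arrays on the same side of the controls. The one naming RPN2, a large oligosaccharyltransferase subunit, with EEF1A2 had changes of 0.02 for the lower dose and -0.11 for the higher. The one naming ALG11, a cytosolic mannosyltransferase, with UTP14C and UTP14A had changes of 0.24 and 0.36, with treated arrays from 5.18 to 6.18 against 5.37 to 5.60 in the controls. Probe sets naming ALG9 also name FDXACB1, and one of them CRYAB, a small heat shock protein gene. The one used, with the higher mean, had changes of -0.39 and -0.28. It read 12.02 to 12.33 on the vehicle arrays and 11.65 to 12.07 on the treated ones. At the lower dose its arrays lay below the controls, where 11.9% of all genes did so, and at the higher dose array 3 did not. Which of the named genes gave these values was not tested.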
